A study of Homo sapiens with 24 samples.

Results

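The comparison is between SKBR3 cells given Herceptin and untreated SKBR3 cells, with 8 libraries in each group, and it covers every gene with enough counts to be tested. Members were chosen by the group in the sample labels, which gave 16 of the 24 libraries of the series, and 13286 of the 60617 rows of the deposited table passed a filter on low counts. SKBR3 is a human breast carcinoma line of luminal type in which the ERBB2 gene is amplified. Its product HER2 is a receptor tyrosine kinase with no known ligand of its own, which pairs with EGFR and HER3 and signals through PI3K and AKT and through the RAS and ERK kinases. Herceptin (trastuzumab) is a humanized IgG1 antibody against the extracellular part of HER2. It is known to slow the growth of ERBB2-amplified cells, and in patients it also draws immune cells with Fc receptors to the tumour, which a culture of one cell line does not hold.

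Treated cells received Herceptin at 4 µg/ml in phosphate-buffered saline, and control cells received nothing. Both groups were seeded at 6500 cells per cm2 in 6-well plates, had their medium changed on days 1 and 4 and gave RNA on day 7, per the labels' protocols. A vehicle group and an unrelated antibody are not named in the labels, so that effects of the saline, of any added IgG and of binding to HER2 cannot be told apart. The labels say that 8 replicates of each group were set up on the first day but not whether they were separate cultures before that, and the p-values given here therefore reflect how much these 16 libraries vary, part of which may be technical. The series also has 8 libraries of cells given a biosimilar, which were not used here.

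Libraries held 10747837 to 12260086 expected counts with Herceptin and 9116591 to 10759115 in control. On the first principal component of log2 CPM (expected counts as a rate per total library, scaled by TMM factors), which held 30.5% of the variance, Herceptin libraries lay between -16.6 and -14.7 and control libraries between 12.7 and 18.7, so that no library lay among the other group. All 11 epithelial markers listed for the line were tested, and together they held 18900 to 19600 CPM with Herceptin and 17100 to 18700 CPM in control. At edgeR adjusted p under 0.05, 6 of them were higher with Herceptin and 1 was lower. These are 54.5% and 9.09%, against 23.8% and 24.5% of all tested genes. Their log2 fold changes ran from -0.68 to 0.43, and 1 marker was lower by over 1.2-fold. ERBB2 itself, whose counts share reads with other sequences and are uncertain to that extent, had 4409 to 4656 CPM with Herceptin (median 4509), against 3989 to 4324 CPM in control (median 4146). Of 10 leukocyte markers 7 stayed under 0.5 CPM in every library, as did 7 of 8 fibroblast and 5 of 7 endothelial markers. The leukocyte markers CD68 (uncertain) and CSF1R and the endothelial marker CDH5 did rise, by 0.80, 0.39 and 0.44 on the log2 scale, and CD68 also encodes a glycoprotein of lysosomes. In bulk RNA, fewer cells of a type and less RNA per cell cannot be told apart. The summed leukocyte list held 72.9 to 79.2 CPM with Herceptin and 47.4 to 57.2 CPM in control, and its part in the results was not tested.

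Herceptin changed the level of 6405 genes (48.2% of those tested, edgeR quasi-likelihood test with Benjamini-Hochberg adjusted p under 0.05), of which 3156 were higher (23.8%) and 3249 lower (24.5%). Nearly all differences were small. The median called difference was 1.18-fold among the rises and 1.17-fold among the falls, and 94 genes rose and 15 fell by at least 2-fold. The larger changes leaned upwards: at 1.5-fold or more there were 392 rises and 131 falls. When the null was a 1.2-fold change instead of no change, 688 genes were higher (5.18%) and 392 lower (2.95%). In 1242 genes (9.35%) every Herceptin library lay above every control library, and in 1077 (8.11%) every one lay below. For 46.8% of the tested genes the 95% interval of the fold change lay within 1.2-fold of no change, and for 96.8% within 2-fold. Below, a gene is said to have risen or fallen only where its adjusted p over all 13286 genes was under 0.05, and fold changes are Herceptin over control on the log2 scale.

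**Figure D1:**
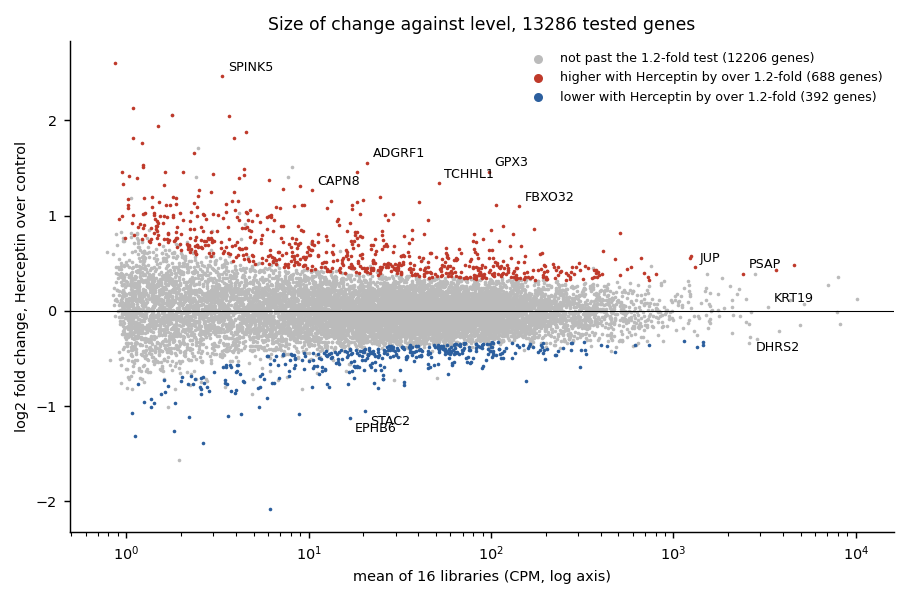
Log2 fold change of Herceptin over control (vertical axis) against mean CPM of the 16 libraries (horizontal log axis), one point per tested gene. Red points are the 688 genes higher by over 1.2-fold and blue points the 392 lower by over 1.2-fold, and grey points passed neither test. Most points lie near 0, and red points reach farther from 0 than blue ones.

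The 10 largest rises were taken among well-counted genes (at least 10 CPM, whole counts and no overlap between groups). They held genes of a receptor, a secreted peroxidase, surface proteins, a protease, an oxidase, a ubiquitin ligase and a transcription factor, among others. ADGRF1, a receptor gene of the adhesion GPCR family (chromosome 6, 46997703 to 47042363, GRCh38, protein-coding), had 25.9 to 34 CPM with Herceptin (median 31.9), against 9.57 to 11.8 CPM in control (median 10.7). Its fold change was the largest of the 269 eligible rises (log2 fold change 1.56, SE 0.0606, edgeR adjusted p = 3.52e-20). GPX3, the gene of the secreted glutathione peroxidase that removes peroxides outside cells (chromosome 5, 151020438 to 151028993), had 131 to 161 CPM with Herceptin (median 141), against 47.5 to 55.1 CPM in control (median 52.5). The groups lay far apart, with the lowest Herceptin library above the highest control library for both genes, and GPX3 rose 2.76-fold (log2 fold change 1.46, SE 0.0378, edgeR adjusted p = 5.76e-25). TCHHL1, which encodes a trichohyalin-like protein of the epidermal gene cluster (chromosome 1, 152084144 to 152089064), had 68.6 to 79.9 CPM with Herceptin (median 75), against 26.1 to 31.4 CPM in control (median 28.9). CAPN8, a calpain protease gene (chromosome 1, 223538007 to 223665734), had 11.8 to 17.2 CPM with Herceptin (median 14.7), against 4.96 to 7.62 CPM in control (median 6.29). Both rose without overlap between groups, at 2.53-fold and 2.4-fold.

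CEACAM6, the gene of a cell adhesion molecule held in the membrane by a lipid anchor (chromosome 19, 41750977 to 41772208), had 31.9 to 37.7 CPM with Herceptin (median 34.3), against 11.4 to 17.8 CPM in control (median 15.5). CYP1A1, whose enzyme oxidizes aromatic hydrocarbons and which the aryl hydrocarbon receptor turns on (chromosome 15, 74719542 to 74725610), had 16 to 21.8 CPM with Herceptin (median 17.7), against 5.93 to 10.4 CPM in control (median 7.9). POF1B, the gene of an actin-binding protein of epithelial junctions on the X chromosome, had 21.6 to 28.1 CPM with Herceptin (median 26.2), against 9.86 to 12.5 CPM in control (median 11.6). In all 3 genes the groups stood clear of each other, with fold changes of 1.19, 1.15 and 1.15. EGR1, an immediate-early transcription factor gene, had 21.4 to 29.4 CPM with Herceptin (median 22.9), against 9.41 to 12.1 CPM in control (median 11.2). SIGLEC6, which encodes a lectin that binds sialic acid, had 139 to 149.5 CPM with Herceptin (median 145), against 63.1 to 71.9 CPM in control (median 67). FBXO32, the gene of a muscle-wasting ubiquitin ligase that FOXO factors turn on, had 179.9 to 205 CPM with Herceptin (median 194), against 87.2 to 93.5 CPM in control (median 90.7). These last 3 rose 2.16-fold, 2.15-fold and 2.14-fold, and SIGLEC6 and FBXO32 had the smallest standard errors of the 10, 0.0304 and 0.0296.

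The 10 largest falls among 178 eligible genes held receptors, enzymes and a transporter. EPHB6, an Eph receptor gene whose product lacks kinase activity (chromosome 7, 142855061 to 142871094), had 9.55 to 11.9 CPM with Herceptin (median 10.4), against 21.7 to 23.9 CPM in control (median 23). STAC2, which encodes an adaptor protein known to bind calcium channels (chromosome 17, 39210536 to 39225872), had 10.8 to 15.7 CPM with Herceptin (median 13.2), against 21.9 to 32.7 CPM in control (median 26.6). Only these 2 of the 10 fell by over 2-fold, with fold changes of -1.12 (SE 0.056) and -1.05 (SE 0.0853). PTGER3, the gene of a prostaglandin E2 receptor (chromosome 1, 70852353 to 71047808), had 15.4 to 19.9 CPM with Herceptin (median 17.4), against 27.7 to 32.8 CPM in control (median 30.8). PTGS1, the gene of cyclooxygenase 1, which makes the precursor of prostaglandins (chromosome 9, 122370530 to 122395703), had 7.47 to 11.8 CPM with Herceptin (median 9.22), against 12.5 to 18.9 CPM in control (median 15.5). Both prostaglandin genes were thus lower in every Herceptin library than in any control library, with fold changes of -0.81 and -0.76. NKD1, which encodes an inhibitor of WNT signalling that WNT itself induces, had 7.73 to 11.3 CPM with Herceptin (median 9.48), against 14.8 to 18.9 CPM in control (median 16.1). CKB, the gene of brain-type creatine kinase, had 15.2 to 19 CPM with Herceptin (median 16.8), against 24.5 to 31.3 CPM in control (median 29.3). ABCG1, the gene of a cholesterol exporter, had 11.7 to 15.2 CPM with Herceptin (median 13.2), against 19.9 to 25.3 CPM in control (median 22). Their ranges were clear of each other, and their fold changes were -0.80, -0.76 and -0.70. GLYATL2, NXPH4 and AIF1L, which encode an acyltransferase, a neurexophilin and an actin-bundling protein, had fold changes of -0.78, -0.77 and -0.67, again without overlap.

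**Figure D2:**
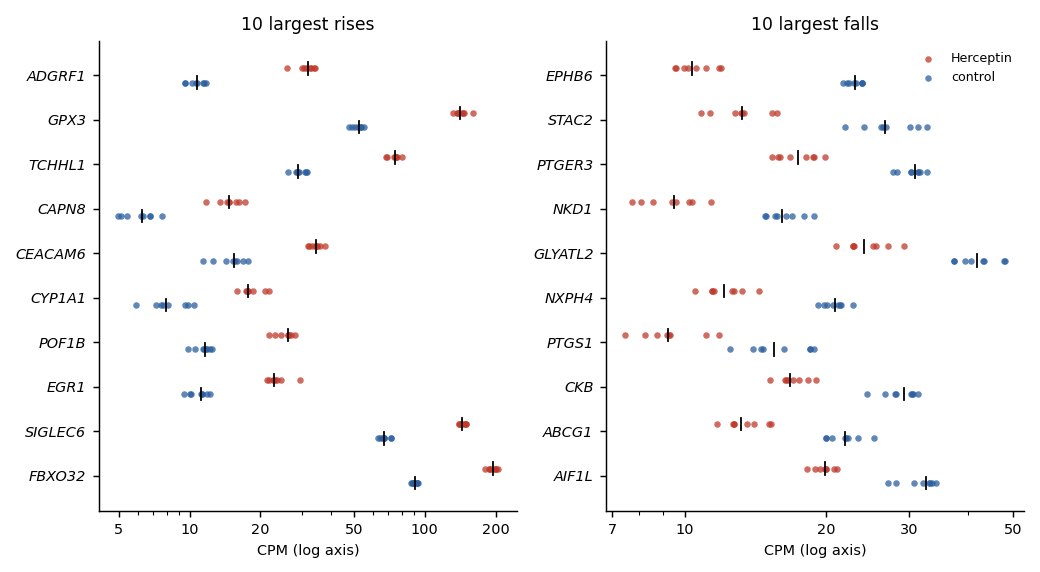
CPM per library (horizontal log axis) of the 10 largest rises (left) and the 10 largest falls (right), with Herceptin libraries in red above control libraries in blue and a black bar at each group's median. Each row shows 8 points per group, and within each row the red and blue points do not overlap.

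All 12 called rises of 3-fold or more were in genes with a mean under 5 CPM. SPINK5, an epidermal protease inhibitor gene, had 3.92 to 6.54 CPM with Herceptin (median 5.83), against 0.516 to 1.61 CPM in control (median 0.995) and rose 5.51-fold. TCL1B, a gene of the TCL1 family of AKT coactivators, had 0.985 to 2.35 CPM with Herceptin (median 1.49), against 0 to 0.391 CPM in control (median 0.29); its counts were not whole in 50% of the libraries, so that its fold change of 2.60 (SE 0.3) is uncertain. MME, the gene of the membrane peptidase neprilysin, had 1.2 to 2.49 CPM with Herceptin (median 1.72), against 0.0977 to 0.79 CPM in control (median 0.442). DLL4, a Notch ligand gene, had 6.45 to 8.37 CPM with Herceptin (median 6.96), against 1.53 to 2.42 CPM in control (median 1.97). All 4 had no overlap between groups. TCL1B and MME were near the floor in control and passed the filter on low counts through the Herceptin libraries, so that they could hardly have fallen. The lone fall of over 3-fold was in RPL39P3, a ribosomal protein pseudogene (-2.08), and it is uncertain because no library gave it a whole count.

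Among nuclear-encoded genes, the largest differences in CPM lay in abundant genes with modest folds (mitochondrially encoded genes were left out of this ranking). PSAP, which encodes the precursor of the saposins that help to break down sphingolipids in lysosomes, had 2600 to 2831 CPM with Herceptin (median 2772), against 2019 to 2169 CPM in control (median 2071). AHNAK, the gene of a giant scaffold protein under the plasma membrane, had 1375 to 1614 CPM with Herceptin (median 1484), against 874 to 1109 CPM in control (median 997). CAPN2, the large subunit gene of m-calpain, had 1423 to 1498 CPM with Herceptin (median 1460), against 948 to 1033 CPM in control (median 992). JUP, the gene of plakoglobin, which links cadherins to keratin filaments and actin, had 1457 to 1558 CPM with Herceptin (median 1527), against 1042 to 1220 CPM in control (median 1071). These 4 rose 1.31-fold, 1.49-fold, 1.46-fold and 1.38-fold, each without overlap. EEF1A1, the elongation factor gene, had the largest gain in CPM among nuclear-encoded genes at 10570 CPM with Herceptin against 9732 CPM in control, a 1.09-fold rise that is uncertain because of its many pseudogene copies. Of the 5 largest falls in CPM of such genes only DHRS2, a mitochondrial dehydrogenase gene, had whole counts, with 2329 to 2441 CPM with Herceptin (median 2401), against 2825 to 2933 CPM in control (median 2903) (log2 fold change -0.27, SE 0.0205, edgeR adjusted p = 7.37e-13). The other 4 share reads with copies and are uncertain: RPL7 (-0.13, edgeR or limma-voom adjusted p = 0.0507 to 0.174 in 14 alternative settings, among them without any one of 7 Herceptin replicates, 3 being the exception, or of control replicates 5 to 8), RPSA (-0.33), HSP90AA1 (-0.29) and GAPDH (-0.21).

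Abundant genes that were held level were measured too, and 755 genes had a 95% interval of the fold change within 0.1 of 0. KRT19, the keratin 19 gene and a standard marker of luminal breast cells, had 3296 to 3426 CPM with Herceptin (median 3388), against 3106 to 3419 CPM in control (median 3272), with a fold change of 0.04 (SE 0.0228, edgeR adjusted p = 0.173). CDK12, a transcriptional kinase gene beside ERBB2 on chromosome 17, had 2045 to 2178 CPM with Herceptin (median 2138), against 2017 to 2159 CPM in control (median 2080), with a fold change of 0.04. ENO1, the alpha enolase gene of glycolysis, had 2030 to 2189 CPM with Herceptin (median 2061), against 2035 to 2270 CPM in control (median 2133), with a fold change of -0.04. In these 3 genes the ranges of the groups overlapped. RPL19 and PPIA, often used as reference genes, were held level as well at -0.01 and -0.01, with shared reads that make both uncertain.

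Shares of all counts were compared for 6 gene classes with an exact two-sided permutation test over the 12870 regroupings of the libraries, adjusted over the 6 classes. The 13 mRNAs encoded by mitochondrial DNA held 2.91% to 3.46% of counts with Herceptin (mean 3.19% ± 0.227, SD, n = 8) and 2.17% to 2.76% in control (mean 2.51% ± 0.2), without overlap (exact permutation p = 0.000155, the smallest these regroupings can give, adjusted p = 0.000311). Nuclear genes of mitochondrial ribosomal proteins went the other way, at 0.511% to 0.546% with Herceptin and 0.599% to 0.649% in control (exact permutation adjusted p = 0.000311). Cytosolic ribosomal protein genes held 6.9% ± 0.231 with Herceptin and 7.28% ± 0.319 in control (exact permutation adjusted p = 0.0284), with overlapping ranges and many shared reads. This last difference missed the threshold without mitochondrially encoded genes in the total (exact permutation adjusted p = 0.058), and without Herceptin replicate 2 or 4 or control replicate 3 or 8 it ran from 0.0529 to 0.0545. The 100 most abundant genes held 20.4% ± 0.229 with Herceptin and 19.7% ± 0.224 in control (exact permutation adjusted p = 0.000311). Without mitochondrially encoded genes in the count, this difference was 0.032 percentage points (exact permutation adjusted p = 0.671). Long non-coding RNAs (1.38% ± 0.0707 with Herceptin and 1.32% ± 0.126 in control) and pseudogenes (0.503% ± 0.0135 with Herceptin and 0.489% ± 0.0137 in control) did not pass (exact permutation adjusted p = 0.33 and 0.0683).

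Gene length moved with the direction of change across the whole set. Among protein-coding genes of at least 10 CPM, 12.1% of the 680 with mRNAs under 1000 bases rose and 50.3% fell, while of the 2053 with mRNAs of 4000 bases or more 41.3% rose and 17.1% fell. The medians of the fold change ran from -0.11 in the shortest class to 0.05 in the longest. Among genes outside the lists below, 11.8% rose and 49.9% fell in the shortest class, and 41.0% rose and 16.9% fell in the longest. The median of long mRNAs minus that of short ones in a library, as log2 deviations from the mean of all libraries, was 0.01 to 0.14 with Herceptin and -0.20 to 0.01 in control. It was lowest in the libraries numbered 3, 5 and 8 of both groups (0.01 to 0.04 with Herceptin and -0.20 to -0.14 in control), and the other libraries had 0.12 to 0.14 with Herceptin and -0.07 to 0.01 in control. Counts with this trend removed from every library are given beside every list below in which the number of risen or of fallen members moved by 3 or more. In the other lists neither number moved by more than 2. With the trend removed, 6363 genes changed, of which 2716 rose and 3647 fell.

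**Figure D3:**
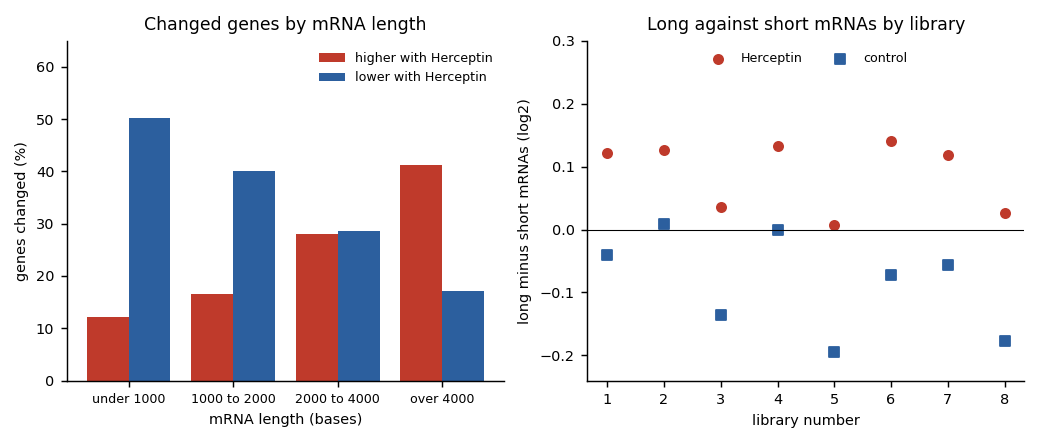
Left, share of protein-coding genes of at least 10 CPM that rose (red) or fell (blue) with Herceptin, by mRNA length in bases. Right, median log2 deviation of mRNAs of 4000 bases or more minus that of mRNAs under 1000 bases, per library number, for Herceptin (red circles) and control (blue squares), with every Herceptin library above the control library of the same number and numbers 3, 5 and 8 lowest in both groups.

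Gene lists by role follow. Each list is given by how many of its tested members rose and fell, beside 23.8% and 24.5% of all tested genes, and by its median fold change, beside 0.00 over all tested genes. Members whose counts were too low to test are left out of these counts, so that a list of mostly silent genes is seen only through the members that were on in at least one group. A member that passed the filter through a single group could hardly move except towards that group. The plots of changed members show the whole set of lists and the members of 10 of them.

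**Figure D4:**
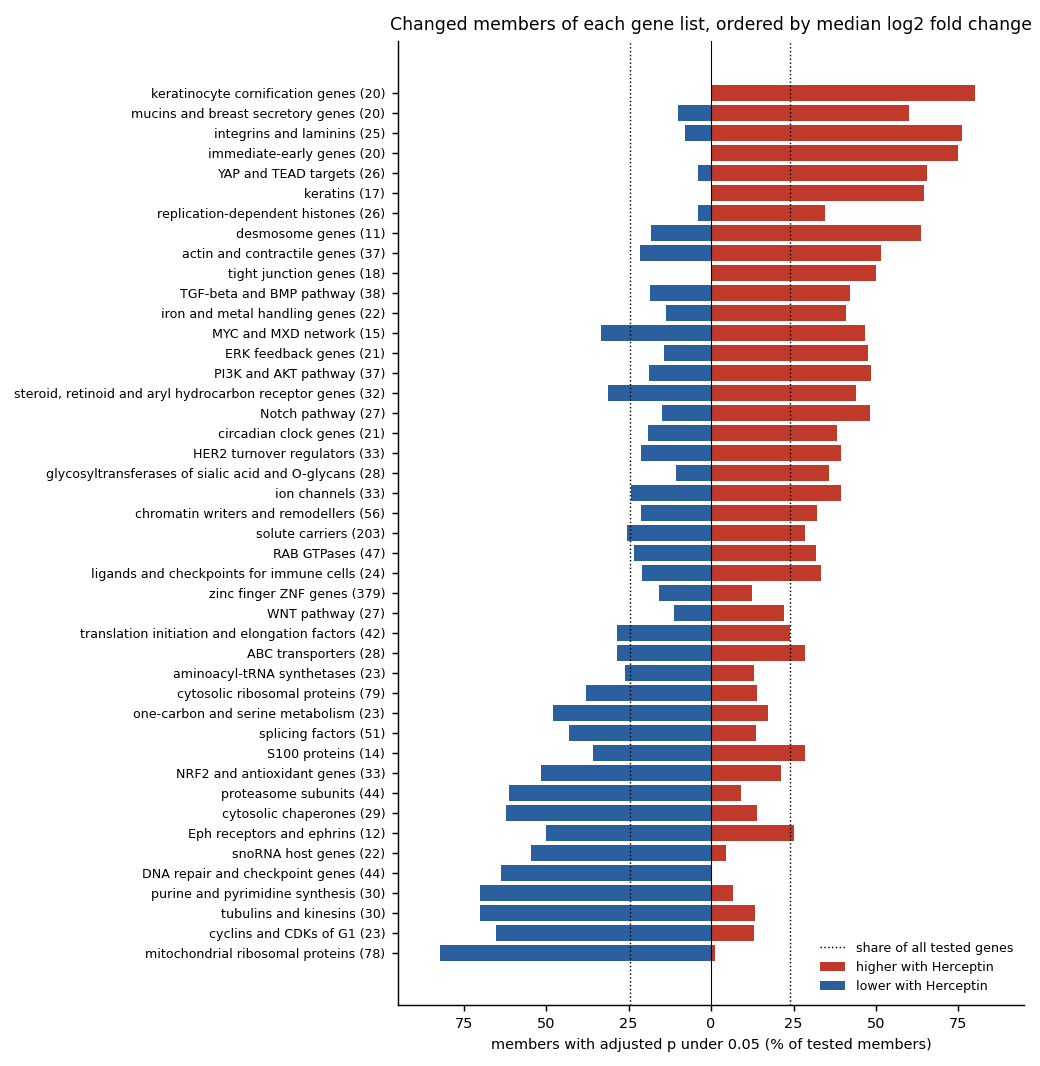
Share of tested members that rose (red, to the right) and fell (blue, to the left) with Herceptin for 44 gene lists, ordered by median log2 fold change, with the number tested in brackets. Dotted lines mark the 23.8% and 24.5% of all tested genes, and cornification genes stand at the top and mitochondrial ribosomal proteins at the bottom.

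Genes of the keratinocyte programme had the highest median fold change of the 44 lists. These genes build the cornified envelope, a shell of cross-linked protein at the surface of the skin, and they are best known from stratified epithelia. Of 41 listed genes, 20 were tested. Of these, 16 rose and 0 fell, and the median fold change was 0.76. SPRR1B and PRR9 were near the floor in control and passed the filter through the Herceptin libraries. Such members could not have fallen, and they are part of these counts and of the median. Promoters of several of them hold letters of the AP-1 site (TGACTCA or its reverse complement), the site bound by FOS and JUN proteins, and 3 are shown here for that reason, as the 150 bases before the RefSeq start (GRCh38.p14, plus strand, 5′ to 3′) with the match in capitals.
IVL, chr1:152908396-152908545: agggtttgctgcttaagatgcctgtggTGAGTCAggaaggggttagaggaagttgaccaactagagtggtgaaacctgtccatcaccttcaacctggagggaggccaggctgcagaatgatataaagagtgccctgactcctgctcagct
SPRR1B, chr1:153031053-153031202: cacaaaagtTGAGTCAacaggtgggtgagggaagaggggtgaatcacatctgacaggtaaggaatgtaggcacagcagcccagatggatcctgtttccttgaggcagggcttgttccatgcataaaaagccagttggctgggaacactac
PRR9, chr1:153217434-153217583: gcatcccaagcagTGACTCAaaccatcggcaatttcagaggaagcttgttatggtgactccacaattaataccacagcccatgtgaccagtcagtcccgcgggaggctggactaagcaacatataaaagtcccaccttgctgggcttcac

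The match starts 123 bases before the start in IVL, 141 in SPRR1B and 137 in PRR9. Of the 14 listed genes with a RefSeq promoter (250 bases before to 50 after the start), 5 (35.7%) held the letters on either strand, against 3.04% of all 9363 tested genes with a promoter and 10.1% of the 507 that rose by over 1.2-fold. The 5 include SPRR1B and PRR9, which entered the list of tested genes through the Herceptin libraries, so this share rests in part on them. These 14 promoters also had fewer G and C bases, with a median of 53.0% against 65.3% over all 9363. Promoters holding the AP-1 letters had 61.0%. The part of base composition in this difference was not tested. A match is a description of these letters and not of a bound site. IVL, the gene of involucrin, an early scaffold of the envelope, had 163 to 172 CPM with Herceptin (median 168), against 89.7 to 107 CPM in control (median 94.3), without overlap (log2 fold change 0.80, SE 0.0335, edgeR adjusted p = 1.66e-19). SPRR1B, a small proline-rich protein of the envelope, had 1.84 to 2.66 CPM with Herceptin (median 2.53), against 0.0988 to 0.853 CPM in control (median 0.668), and PRR9, a proline-rich protein gene of the same cluster, rose by 2.05 on the log2 scale at 2.88 CPM with Herceptin against 0.685 CPM in control. PPL and EVPL, the genes of periplakin and envoplakin, which anchor the envelope to keratin filaments, stood at far higher levels: PPL had 93.7 to 108 CPM with Herceptin (median 102), against 60.5 to 76.5 CPM in control (median 69.8), and EVPL rose by 0.33. ABCA12, which pumps lipids into the lamellar granules of keratinocytes, rose by 0.48, and ALOXE3, a lipoxygenase gene of the lipid envelope, by 0.86. Protease control was represented by SPINK5 above and by A2ML1, a broad protease inhibitor gene, with 41.3 to 49.9 CPM with Herceptin (median 42.8), against 24.4 to 29.3 CPM in control (median 26.7). Of the transcription factors of this programme, GRHL1 (0.28) and ZNF750 (0.45) rose, while GRHL2 (0.10), GRHL3 (0.18) and OVOL1 (0.01, uncertain) did not pass, though GRHL2 did in 13 alternative settings (edgeR adjusted p = 0.0247 to 0.0495), among them without any one of Herceptin replicates 3, 5 or 6 or control replicates 2, 4 or 8. TGM1, the transglutaminase that cross-links the envelope, did not pass either (fold change -0.07, 48.3 CPM with Herceptin against 50.6 CPM in control).

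Keratins rose in part, 11 of 17 with 0 falling and a median of 0.17. KRT23, a keratin of simple epithelia, had 25.6 to 28.3 CPM with Herceptin (median 27), against 7.68 to 11.5 CPM in control (median 9.78), the largest rise of a keratin of at least 10 CPM (fold change 1.46, SE 0.06). KRT27, an inner root sheath keratin of hair, and KRT20, a keratin of gut epithelium, rose by 1.82 and 1.51, with 6.11 CPM with Herceptin against 1.73 CPM in control for KRT27 and 1.85 CPM with Herceptin against 0.637 CPM in control for KRT20. KRT20 was near the floor in control and passed the filter mostly through the Herceptin libraries, so that it could hardly have fallen. The abundant pair KRT8 and KRT18 of simple epithelia, both uncertain for shared reads, rose less (0.08 and 0.26), and the KRT8 call was lost without Herceptin replicate 5 (edgeR adjusted p = 0.0581) or control replicate 7 (0.071). Basal KRT5 stayed low and did not pass (1.61 CPM with Herceptin against 1.55 CPM in control, fold change 0.06), while basal KRT17 rose by 0.47.

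Desmosome genes rose in 7 of 11 and fell in 2 (median 0.14). DSP, the gene of desmoplakin, which ties desmosomes to keratin, had 389 to 440.5 CPM with Herceptin (median 409), against 309.9 to 338 CPM in control (median 318). DSC2, a desmosomal cadherin gene, rose by 0.35, and DSC1, the cadherin of the upper epidermis, by 1.32 at 2.32 CPM with Herceptin against 0.917 CPM in control. DSC1 was also near the floor in control and passed the filter mostly through the Herceptin libraries. The plakophilin genes PKP1 and PKP3 fell (-0.29 and -0.09), whereas PKP2 rose by 0.14 (edgeR adjusted p = 0.113 with the length trend removed). With the length trend removed 5 of 11 rose and 2 fell. Tight junction genes rose in 9 of 18 with 0 falling (median 0.11): TJP1 and CGN, which encode the plaque proteins ZO-1 and cingulin, rose by 0.29 and 0.33, and of the claudins CLDN1 and CLDN4 rose (0.46 and 0.13) while CLDN3 and CLDN7 did not pass (0.01 and -0.05).

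Integrins, laminins and other basement membrane genes rose in 19 of 25 and fell in 2, with a median of 0.29. ITGA2, the collagen-binding integrin subunit gene, had 36.3 to 43.5 CPM with Herceptin (median 39.2), against 24.9 to 28.4 CPM in control (median 25.9). ITGB4, whose product forms hemidesmosomes with integrin alpha-6, had 71 to 81.2 CPM with Herceptin (median 79), against 46.1 to 60.2 CPM in control (median 52.7). ITGB6, of the integrin that frees TGF-beta from its latent form, had 94.7 to 114 CPM with Herceptin (median 96.6), against 62.2 to 86.1 CPM in control (median 77.1). All 3 stood clear of control in every library, at 1.5-fold, 1.45-fold and 1.32-fold. The laminin genes LAMA3 and LAMB3, whose products help to anchor hemidesmosomes, rose by 0.29 and 0.34, and the collagen IV gene COL4A1 rose by 1.01 at 4.27 CPM with Herceptin against 2.11 CPM in control. The 2 falls were in ITGAE, the subunit that binds E-cadherin on T cells (-0.44), and HSPG2, the gene of perlecan (-0.20). ITGAV and AGRN did not pass, with fold changes of 0.05 and 0.04.

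Secretory genes of the luminal breast cell rose in 12 of 20 and fell in 2 (median 0.43). CLU, the gene of the secreted chaperone clusterin, had 755 to 830.0 CPM with Herceptin (median 794), against 512 to 559 CPM in control (median 535). MUC16, which carries the CA125 antigen, had 114 to 154 CPM with Herceptin (median 127), against 51.9 to 101 CPM in control (median 70.4). MUC15, a membrane mucin gene, had 14.3 to 18.9 CPM with Herceptin (median 18), against 6.55 to 10.5 CPM in control (median 8.03). All 3 were higher in each Herceptin library than in any control library. PIP, the gene of prolactin-inducible protein, which apocrine glands secrete, had 5.32 to 12.9 CPM with Herceptin (median 9.14), against 1.65 to 4.54 CPM in control (median 3.53), a 2.59-fold rise, and LCN2, the gene of the iron-binding lipocalin 2, rose 1.94-fold. ELF5, the transcription factor gene of milk-producing cells, rose by 0.39 and PRLR, the prolactin receptor gene, fell (-0.12). The membrane mucin MUC1 and the gel-forming MUC5B went apart: MUC1 did not pass (0.03) and MUC5B fell (-0.64). S100 genes had no common direction, with 4 of 14 higher and 5 lower (median -0.07): S100P had 315 to 361 CPM with Herceptin (median 342), against 216 to 270.3 CPM in control (median 250.1), and S100A8, which encodes a subunit of the antimicrobial protein calprotectin, fell (-0.33).

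**Figure D5:**
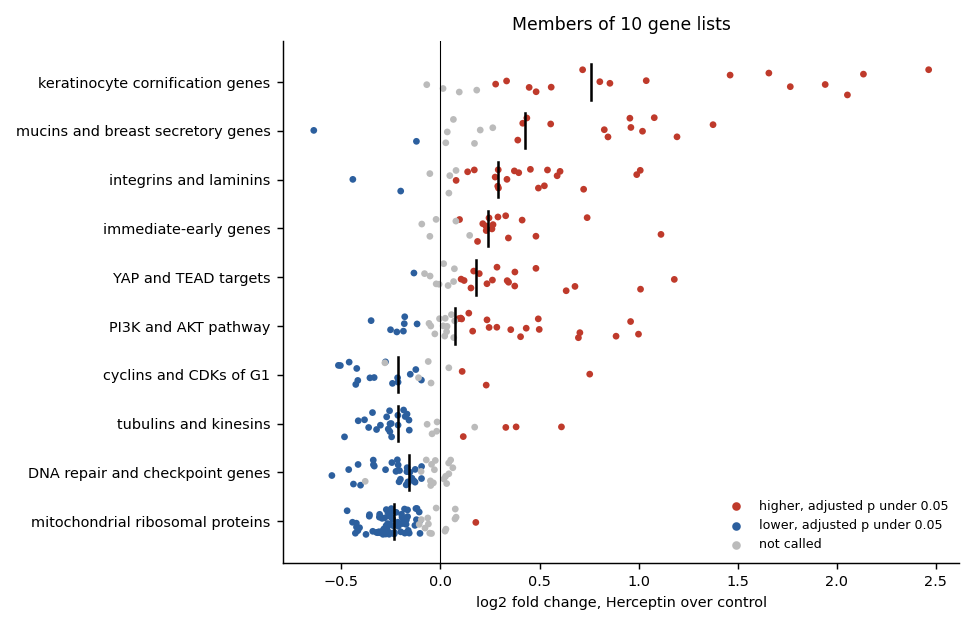
Log2 fold change of Herceptin over control for every tested member of 10 gene lists, one point each, with a black bar at the list's median. Red points rose and blue points fell at adjusted p under 0.05 and grey points did not pass, and the cornification genes reach 2.46 while no mitochondrial ribosomal protein lies beyond -0.47.

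Between HER2 and the nucleus, genes of the PI3K and AKT pathway rose in 18 of 37 and fell in 7 (median 0.07). The pathway passes signals from receptors to AKT, which drives growth through mTOR and holds FOXO factors out of the nucleus. Among receptors and adaptors, INSR, the insulin receptor gene, had 30.2 to 34.9 CPM with Herceptin (median 32.8), against 18 to 22.1 CPM in control (median 20.03). IGF1R, the gene of the related receptor for insulin-like growth factor, rose by 0.50, and IRS1 and IRS2, the adaptors of both receptors, by 0.35 and 1.00, IRS2 at only 2.05 CPM with Herceptin against 1.02 CPM in control. GAB2 and GAB1, adaptors that recruit PI3K to HER receptors, rose by 0.89 and 0.28. Inhibitors rose alongside: INPP4B, which encodes a phosphatase of PI3K products, had 26.1 to 29.1 CPM with Herceptin (median 28.1), against 15.4 to 18.4 CPM in control (median 17.2), and TSC1, a brake on mTOR, had 30.7 to 38.2 CPM with Herceptin (median 34.2), against 24.2 to 28.1 CPM in control (median 25.1). PIK3IP1, an inhibitor of the catalytic subunit, rose by 0.49 and INPP5D by 0.96. The kinase genes AKT1 (uncertain) and AKT2 fell a little (-0.18 and -0.12), RPS6KB2, an S6 kinase gene, fell further (-0.35), and PIK3R1 and GSK3B did not pass (0.02 and 0.02). With the length trend removed, 14 of 37 rose and 9 fell.

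Genes whose products bind HER receptors or control their shedding, trafficking and breakdown rose in 13 of 33 and fell in 7 (median 0.06). GRB7, the gene of an adaptor co-amplified with ERBB2, had 343 to 363 CPM with Herceptin (median 353), against 249 to 275 CPM in control (median 263). CAV1, the caveolin gene of membrane pits, had 39.1 to 44.6 CPM with Herceptin (median 42.1), against 26 to 32.3 CPM in control (median 30.8). FLOT2, which encodes flotillin 2 of membrane rafts, rose by 0.31. These 3 showed no overlap. ADAM10, which sheds the outer part of HER2, rose by 0.23, whereas ADAM17 did not pass (-0.02, uncertain). ERRFI1, whose product MIG6 inhibits EGFR and HER2, rose by 0.25. Of the ubiquitin ligases CBL and CBLC did not pass (0.01 and -0.02; with the length trend removed CBL turned to -0.09, edgeR adjusted p = 0.0284), CBLB rose by 0.30, and STUB1, the gene of the chaperone-linked ligase CHIP, fell (-0.26, uncertain).

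Immediate-early genes, transcription factor genes that cells switch on within minutes of a stimulus, rose in 15 of 20 with 0 falling (median 0.24) at 7 days. Apart from EGR1, KLF4 had 50.2 to 57 CPM with Herceptin (median 53.1), against 36.6 to 43.9 CPM in control (median 40.2), and JUN had 32.5 to 37.9 CPM with Herceptin (median 36), against 26.8 to 29.3 CPM in control (median 28.1). FOSL2 rose by 0.33 and MCL1, the gene of a short-lived survival protein, by 0.27, both without overlap. FOS was low, at 3.22 CPM with Herceptin against 1.93 CPM in control, and rose by 0.74 (edgeR adjusted p = 7.2e-05). SRF, which drives many of these genes, did not pass (-0.09), but fell in 7 alternative settings, among them without Herceptin replicate 5 (edgeR adjusted p = 0.0175) or control replicate 8 (0.0221) and with the length trend removed (-0.14, 0.00437), where it was the 1 immediate-early gene that fell.

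ERK feedback genes, which ERK activity induces and whose products often damp it, rose in 10 of 21 and fell in 3 (median 0.08). DUSP5, the gene of a nuclear phosphatase of ERK, had 22.8 to 27.5 CPM with Herceptin (median 25), against 13 to 15.9 CPM in control (median 14.6). PHLDA1, which encodes a small regulator that ERK signalling induces, had 9.31 to 12.1 CPM with Herceptin (median 10.4), against 5.62 to 7.11 CPM in control (median 6.4). Both had no overlap, and the related phosphatase genes DUSP1 and DUSP4 rose by 0.35 and 0.18. DUSP7 and IER3, a phosphatase and an early survival gene, fell (-0.36 and -0.30), and the inhibitors SPRY2 and SPRY4 and the ETS factor genes ETV1 and ETV4 did not pass, at -0.15, -0.01, -0.21 and -0.24. ETV4 passed in 5 alternative settings (edgeR adjusted p = 0.031 to 0.049), among them without Herceptin replicate 3 or 7 or control replicate 4. In the MYC network 7 of 15 rose and 5 fell (median 0.08). MYC itself, the growth factor-driven regulator of ribosome production, had 112 to 119.7 CPM with Herceptin (median 118), against 106 to 121 CPM in control (median 111), with overlapping ranges and a small rise (log2 fold change 0.08, SE 0.0287, edgeR adjusted p = 0.0294). That rise missed the threshold in 9 alternative settings (edgeR adjusted p = 0.0513 to 0.207), among them without Herceptin replicate 6 or 8 or control replicate 6, 7 or 8 and with the length trend removed. Of its antagonists MXD1 (uncertain), MXI1 and MXD4 rose by 0.35, 0.29 and 0.15, while MXD3 (uncertain) fell (-0.29).

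Cyclins, kinases and E2F factors of G1, which decide whether a cell enters S phase, fell in 15 of 23 and rose in 3 (median -0.22). Among E2F genes, whose products switch on S-phase genes, 6 of the 7 tested fell. E2F1 had 31.4 to 37.4 CPM with Herceptin (median 35.2), against 44 to 53.4 CPM in control (median 48.4). E2F2 had 12.1 to 20.1 CPM with Herceptin (median 17.1), against 22 to 26.1 CPM in control (median 24.6). Neither gene had any overlap, and the fold changes were -0.46 and -0.51. The repressors E2F7 and E2F8 fell as well (-0.42 and -0.42), and E2F5 (uncertain) did not pass (-0.28) except without Herceptin replicate 5 or control replicate 2 or 4 (edgeR adjusted p = 0.0221 to 0.0433). CCND3, the cyclin D3 gene, had 50.7 to 58.2 CPM with Herceptin (median 55.9), against 67.1 to 80.7 CPM in control (median 74.7) and fell by 0.43 on the log2 scale, whereas CCND1 (uncertain), the cyclin D1 gene, rose by 0.11. CCNE2 (uncertain) and CDK2, cyclin E2 and its kinase, fell (-0.50 and -0.21). Of the inhibitors CDKN2B, which encodes p15 and blocks CDK4 and CDK6, rose by 0.75, and CDKN1A and CDKN1B, which encode p21 and p27, did not pass (-0.06 and 0.04).

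E2F sites were searched as TTCGCGCC, TTTCCCGC or TTTGGCGC on either strand, since E2F factors are known to act on their own genes. They were found in 22.2% of the 18 promoters of this list, against 5.34% of all tested genes with a promoter and 10.2% of the 285 that fell by over 1.2-fold. The promoters of E2F1 and E2F2 are shown for their matching letters as the 150 bases before the start (GRCh38.p14, minus strand, 5′ to 3′), with the match in capitals.
E2F1, chr20:33686386-33686535: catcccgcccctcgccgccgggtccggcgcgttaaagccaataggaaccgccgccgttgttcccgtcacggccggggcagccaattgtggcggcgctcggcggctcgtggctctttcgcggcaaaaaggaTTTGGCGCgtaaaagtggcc
E2F2, chr1:23531234-23531383: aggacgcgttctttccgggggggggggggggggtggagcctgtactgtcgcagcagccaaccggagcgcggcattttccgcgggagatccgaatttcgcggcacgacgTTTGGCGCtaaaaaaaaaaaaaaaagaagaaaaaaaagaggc

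The same 8 letters begin 20 bases before the start in E2F1 and 42 bases before it in E2F2. DNA repair and checkpoint genes, many of which are S-phase genes, fell in 28 of 44 with 0 rising (median -0.16), and with the length trend removed 32 fell and 0 rose. RAD51AP1, a gene of homologous recombination, had 46.8 to 53.8 CPM with Herceptin (median 49.3), against 62.4 to 83.1 CPM in control (median 72.4). CHEK1, the checkpoint kinase gene of stalled replication, had 36.1 to 41.1 CPM with Herceptin (median 39.7), against 42.8 to 52.5 CPM in control (median 46.5). PARP1, the gene of the enzyme that marks broken DNA with ADP-ribose, had 265 to 288 CPM with Herceptin (median 272), against 294 to 308 CPM in control (median 302). These 3 lay below control without overlap, by 1.46-fold, 1.21-fold and 1.1-fold. BRCA1, BRCA2, ATM and TP53BP1 (uncertain), which sense or repair double-strand breaks, did not pass (-0.05, -0.04, 0.04 and 0.03), though BRCA2 fell with the length trend removed (-0.14, edgeR adjusted p = 0.0159).

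Genes of nucleotide synthesis fell in 21 of 30 and rose in 2 (median -0.20). TK1, the thymidine kinase gene, had 341 to 368 CPM with Herceptin (median 356), against 420.4 to 454 CPM in control (median 429). PAICS, an enzyme gene of the purine pathway, had 255 to 280.4 CPM with Herceptin (median 262), against 306 to 388 CPM in control (median 364). TYMS (uncertain), which makes thymidylate, fell by 1.31-fold. DHODH, the mitochondrial enzyme gene of pyrimidine synthesis, fell less (-0.26). The 2 rises were ATIC (0.37), of the last steps to inosine monophosphate, and ADSS (0.11). CAD, which encodes the enzyme that begins pyrimidine synthesis, did not pass (0.07; edgeR adjusted p = 0.0439 among genes with a mean of at least 10 CPM). In one-carbon and serine metabolism, which feeds these pathways, 11 of 23 fell and 4 rose (median -0.05). PSAT1 and PHGDH, of serine synthesis, had fold changes of -0.59 and -0.47, and the mitochondrial enzyme gene SHMT2 had 112 to 119 CPM with Herceptin (median 115), against 142 to 151 CPM in control (median 146).

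Tubulins and kinesins, the tracks and motors of the spindle, fell in 21 of 30 and rose in 4 (median -0.21), and with the length trend removed 24 fell and 5 rose. Many genes of mitosis carry a CHR element (TTTGAA) with NF-Y sites (CCAAT) upstream of it. Of 29 listed genes with a promoter 41.4% held the CHR letters and 58.6% the CCAAT letters on either strand, against 9.40% and 36.8% of all tested genes with a promoter. Among the 285 that fell by over 1.2-fold these shares were 15.8% and 44.9%. The promoters of KIF11 (GRCh38.p14, plus strand) and KIF18A (minus strand), both with fallen mRNAs, show the pair of elements in capitals over the 150 bases before the start.
KIF11, chr10:92592980-92593129: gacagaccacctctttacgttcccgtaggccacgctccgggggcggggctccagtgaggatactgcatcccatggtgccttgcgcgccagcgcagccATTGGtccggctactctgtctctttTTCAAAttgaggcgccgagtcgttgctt
KIF18A, chr11:28108157-28108306: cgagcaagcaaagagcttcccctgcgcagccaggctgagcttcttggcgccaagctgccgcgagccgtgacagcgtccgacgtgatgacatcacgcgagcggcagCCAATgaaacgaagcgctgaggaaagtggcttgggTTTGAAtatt

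The CHR letters begin 28 bases before the start in KIF11 and 10 bases before it in KIF18A, and the CCAAT letters begin 53 and 45 bases before it. KIF11, the gene of the motor that pushes spindle poles apart, had 68.8 to 78.3 CPM with Herceptin (median 74.5), against 82.4 to 99.3 CPM in control (median 92.4). KIF18A, which controls chromosome alignment, had 22.6 to 28.6 CPM with Herceptin (median 23.7), against 23.3 to 33.9 CPM in control (median 27.9). The groups lay apart for KIF11 and overlapped for KIF18A, with fold changes of -0.30 and -0.21. KIF18B had the lowest fold change of the list, with 17.6 to 21.4 CPM with Herceptin (median 20.5), against 25.1 to 30.6 CPM in control (median 28.1) (log2 fold change -0.48, SE 0.0522, edgeR adjusted p = 2.17e-09). The tubulin genes TUBB and TUBA1B, both uncertain, fell by 1.29-fold and 1.3-fold. The kinesins of vesicle transport KIF13B and KIF16B rose instead, and KIF13B had 53.1 to 60.8 CPM with Herceptin (median 56.6), against 32.3 to 39.9 CPM in control (median 37.5). Replication-dependent histones, whose mRNAs mostly lack poly(A) tails and so are counted only in part by a poly(A) protocol, rose in 9 of 26 and fell in 1 (median 0.16), led by HIST1H1C with 23.2 to 28.5 CPM with Herceptin (median 26.7), against 14.8 to 21.3 CPM in control (median 18.8).

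Mitochondrial ribosomal proteins, which are made in the cytosol and build the ribosome that translates the 13 mitochondrially encoded mRNAs, fell in 64 of 78 and rose in 1 (median -0.23). In 33 of the 78 every Herceptin library lay below every control library, against 8.11% of all tested genes. MRPL12 had 153 to 164 CPM with Herceptin (median 162), against 203 to 239.6 CPM in control (median 210.0). MRPL13 had 379 to 443 CPM with Herceptin (median 406), against 479 to 606 CPM in control (median 562). MRPS16 had 229 to 248 CPM with Herceptin (median 245), against 267 to 303 CPM in control (median 295). The groups were clear of each other in all 3, at -0.41, -0.43 and -0.26. The lone rise was MRPS31 (0.18, edgeR adjusted p = 0.019, and 0.0537 without control replicate 6). These mRNAs are short, with a median of 1092 bases. With the length trend removed 63 of 78 fell, with a median of -0.21. Within the libraries numbered 3, 5 and 8 alone 57 fell and 0 rose, and within the other numbers 60 fell and 0 rose. This split was added after seeing the data. Herceptin libraries had the higher long-minus-short value in both sets of numbers, so the split cannot separate length from treatment. Of other lists split this way, DNA repair and checkpoint genes fell in 15 and 23 of 44. Integrins and laminins rose in 12 and 19 of 25 and fell in 1 and 2, and cornification genes rose in 16 and 17 of 20. Tubulins and kinesins fell in 18 and 20 of 30 and rose in 2 and 4, and immediate-early genes rose in 11 and 13 of 20. Over all 13286 tested genes, 1953 rose and 2094 fell within numbers 3, 5 and 8, and 2687 rose and 2540 fell within the others. The part of length in these changes was not tested.

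Cytosolic ribosomal proteins moved less and both ways, with 30 of 79 lower and 11 higher (median -0.04), and 54 of the 79 are uncertain because their reads match many pseudogenes. With the length trend removed 27 fell and 18 rose. Among those with whole counts RPL34 had 393 to 459 CPM with Herceptin (median 415), against 471 to 612 CPM in control (median 568), RPS9 fell (-0.26) and RPL28 rose (0.13). Initiation and elongation factors also split, with 10 of 42 higher and 12 lower (median -0.02): EIF4G2, of cap-independent initiation, had 1826 to 1959 CPM with Herceptin (median 1868), against 1599 to 1769 CPM in control (median 1631), and EIF2B5, of the exchange factor for eIF2, fell (-0.11). Of the aminoacyl-tRNA synthetases and their partners 3 of 23 rose and 6 fell (median -0.03; 2 and 9 with the length trend removed), and EEF1E1, a scaffold of the synthetase complex, had 53.5 to 66.7 CPM with Herceptin (median 61), against 75.5 to 102 CPM in control (median 89.7). Host genes of small nucleolar RNAs fell in 12 of 22 and rose in 1 (median -0.14), with 14 uncertain, and SNHG15 had 28.1 to 32.8 CPM with Herceptin (median 31.9), against 37.6 to 43 CPM in control (median 40.4).

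Splicing factors fell in 22 of 51 and rose in 7 (median -0.06). SRSF5, of the serine and arginine-rich family, rose, with 252 to 289 CPM with Herceptin (median 275), against 185 to 217 CPM in control (median 205), while SRSF3 of the same family and LSM2, of the ring on U6 RNA, fell (-0.23 and -0.38). Proteasome subunits and their assembly factors fell in 27 of 44 and rose in 4 (median -0.11). PSMG1, an assembly chaperone of the 20S core, had 47.1 to 57.2 CPM with Herceptin (median 53.1), against 63.4 to 74.5 CPM in control (median 66.9), and PSMB5, its chymotrypsin-like subunit, had 125 to 139.5 CPM with Herceptin (median 130.5), against 146 to 161 CPM in control (median 152). Neither overlapped control. PSMB10 (uncertain) and PSME1, which belong to the interferon-induced form, rose by 0.24 and 0.14. Cytosolic chaperones fell in 18 of 29 and rose in 4 (median -0.12). FKBP4, a partner of HSP90 on steroid receptors, had 338 to 363 CPM with Herceptin (median 342), against 419 to 435 CPM in control (median 429). HSPA8, the constitutive HSP70 gene, fell (-0.14), and BAG3 and HSPB8, a pair that sends clients to autophagy, rose by 0.14 and 0.29.

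Genes of the actin cytoskeleton rose in 19 of 37 and fell in 8 (median 0.12). MYH14 and MYH9 encode heavy chains of non-muscle myosin, and MYH14 had 240.2 to 274 CPM with Herceptin (median 258), against 171 to 202 CPM in control (median 177). MYH9 had 787 to 889 CPM with Herceptin (median 807), against 601 to 705 CPM in control (median 629). ACTA2, the smooth muscle actin gene, had 7.32 to 11.3 CPM with Herceptin (median 8.98), against 2.89 to 5.67 CPM in control (median 3.91). All 3 were higher without overlap. TAGLN2 and CORO1A, which encode an actin-bundling protein and a coronin, fell, and CORO1A had 79.1 to 90.9 CPM with Herceptin (median 84.8), against 108 to 143 CPM in control (median 116). The fibroblast markers stayed low beside ACTA2, with a summed 3.46 to 4.28 CPM with Herceptin and 3.95 to 5.53 CPM in control. ACTB and ACTG1, both uncertain, did not pass (-0.05 and -0.01).

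Targets and partners of YAP and TEAD, which respond to cell shape and tension, rose in 17 of 26 and fell in 1 (median 0.18), and with the length trend removed 14 rose and 1 fell (median 0.13). CCN2 and CCN1, the standard target genes, rose: CCN2 had 26.5 to 34.8 CPM with Herceptin (median 32.3), against 16.4 to 23.2 CPM in control (median 20.9), and CCN1 had 94.7 to 114 CPM with Herceptin (median 104), against 64.7 to 80.9 CPM in control (median 75.7). NT5E, the gene of the surface enzyme CD73 that makes adenosine, had 30.2 to 41 CPM with Herceptin (median 35.3), against 16.1 to 20.6 CPM in control (median 16.6). These 3 lay clear of control. YAP1 itself rose by 0.12 (edgeR adjusted p = 0.0549 with the length trend removed), and the TEAD1 to TEAD4 genes did not pass (0.02, -0.02, 0.07 and -0.08; for TEAD4 edgeR adjusted p = 0.0481 without Herceptin replicate 1 and 0.0483 without control replicate 7). AJUBA, a LIM protein gene that inhibits LATS kinases, was the lone fall (-0.13).

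In the TGF-beta and BMP pathway 16 of 38 rose and 7 fell (median 0.09), and with the length trend removed 13 rose and 8 fell (median 0.05). SMAD3, the signal transducer gene, had 40.5 to 45.6 CPM with Herceptin (median 42.6), against 26.1 to 29.96 CPM in control (median 27.6). TGFBI, a secreted target, had 31.4 to 39.1 CPM with Herceptin (median 35.6), against 20.1 to 26 CPM in control (median 22.2). Of the ligands TGFB2 (uncertain) rose by 0.63 and TGFB3 fell (-0.36). ID1, ID2 and ID3, the classic targets of BMP signalling, fell (-0.12, -0.25 and -0.15; for ID1 edgeR adjusted p = 0.129 with the length trend removed), and SMAD4 and SMAD7 did not pass (0.04 and 0.03). In the Notch pathway 13 of 27 rose and 4 fell (median 0.06). Beside the ligand DLL4, the ligand gene JAG1 had 7.5 to 10.6 CPM with Herceptin (median 9.38), against 4.74 to 7.39 CPM in control (median 6.68), and the coactivator gene MAML2 had 8.8 to 11.1 CPM with Herceptin (median 10.6), against 4.85 to 6.72 CPM in control (median 6.17). NOTCH2 (uncertain; edgeR adjusted p = 0.0845 with the length trend removed) and NOTCH3 rose by 0.15 and 0.18 whereas NOTCH1 fell (-0.16), and of the targets HES1 rose by 0.15 and HES4 fell (-0.42). Within numbers 3, 5 and 8 the calls of NOTCH1, NOTCH3, HES1 and HES4 missed the threshold (edgeR adjusted p = 0.08 to 0.176).

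The WNT pathway changed in few members, 6 of 27 higher and 3 lower (median 0.00; 4 and 3 with the length trend removed, median -0.06). Besides NKD1, KREMEN2 (uncertain), a co-receptor of the inhibitor DKK1, fell (-1.11), and the ligand gene WNT5A and DKK1 rose by 0.24 and 0.50. CTNNB1, which encodes beta-catenin, did not pass, with 279 to 303 CPM with Herceptin (median 288), against 263 to 303 CPM in control (median 296) and overlapping ranges. Eph receptors and ephrins fell in 6 of 12 and rose in 3 (median -0.14): EPHB4 had 18.3 to 22.2 CPM with Herceptin (median 19.1), against 26 to 33.3 CPM in control (median 29.5), while the ephrin gene EFNA1 and its receptor gene EPHA2 rose by 0.15 and 0.16.

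Among steroid, retinoid and aryl hydrocarbon receptor genes 14 of 32 rose and 10 fell (median 0.06), and with the length trend removed 11 rose and 9 fell. The aryl hydrocarbon receptor gene AHR (uncertain) and its targets CYP1A1, CYP1B1 (uncertain) and TIPARP rose together, with TIPARP at 41.6 to 46.5 CPM with Herceptin (median 42.9), against 30.9 to 33.9 CPM in control (median 31.4) and fold changes of 0.25 for AHR and 0.29 for CYP1B1; the target AHRR (uncertain) did not pass (0.19) but did in 6 alternative settings (edgeR adjusted p = 0.0122 to 0.05), among them without Herceptin replicate 5 or 8 or control replicate 2 or 4. ESR1, the estrogen receptor gene, stayed low at 2.28 CPM with Herceptin against 1.53 CPM in control and rose by 0.57, while its targets TFF1 and TFF3 were low and fell (-0.82 and -0.71). The ranges of the groups overlapped for ESR1, TFF1 and TFF3. Both falls missed the threshold within numbers 1, 2, 4, 6 and 7 (edgeR adjusted p = 0.13 and 0.0837). The ESR1 rise missed it within numbers 3, 5 and 8 (edgeR adjusted p = 0.218). PDK4, which holds pyruvate back from the citric acid cycle and is a target of PPAR and FOXO factors, had 4.46 to 6.96 CPM with Herceptin (median 5.51), against 1.72 to 2.74 CPM in control (median 2.42).

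NRF2 targets and antioxidant genes fell in 17 of 33 and rose in 7 (median -0.10). Both NFE2L2, the NRF2 gene, and KEAP1, its inhibitor, rose (0.21 and 0.16). ME1 and PGD, which encode enzymes that make NADPH, both fell: ME1 had 41 to 46.7 CPM with Herceptin (median 45.1), against 51.2 to 64.5 CPM in control (median 58.5), and PGD had a fold change of -0.18. TXNRD1 and CAT, thioredoxin reductase and catalase, rose by 0.19 and 0.23, whereas TXN, SOD1 and GPX4 fell (-0.28, -0.23 and -0.14). Iron and metal genes rose in 9 of 22 and fell in 3 (median 0.08). SLC40A1, the gene of the iron exporter ferroportin, had 65.3 to 78.1 CPM with Herceptin (median 69.5), against 39.7 to 46.6 CPM in control (median 44.7). FTL, the ferritin light chain gene, had 109 to 122 CPM with Herceptin (median 116), against 83.9 to 96.7 CPM in control (median 87.9). NCOA4, which delivers ferritin to lysosomes, rose by 0.27, and TFRC, the gene of the transferrin receptor that takes iron up, rose by 0.11 (edgeR adjusted p = 0.115 with the length trend removed).

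ABC transporters rose in 8 of 28 and fell in 8 (median -0.03). ABCA5, of lysosomal lipid transport, rose by 0.40 and ABCC4, an exporter of cyclic nucleotides and drugs, had 4.03 to 5.63 CPM with Herceptin (median 4.76), against 6.54 to 9.39 CPM in control (median 8.53). The drug exporter gene ABCC1 rose by 0.12 (edgeR adjusted p = 0.23 with the length trend removed), and ABCG2 stayed low and did not pass (-0.12). Clock genes rose in 8 of 21 and fell in 4 (median 0.06): CLOCK, the gene of the activator, had 95.2 to 106 CPM with Herceptin (median 101), against 112 to 121 CPM in control (median 117), while its paralog NPAS2 (uncertain) rose by 0.45, and PER2, CRY1 and ARNTL did not pass (-0.01, -0.04 and 0.13).

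Ligands and checkpoints seen by immune cells rose in 8 of 24 and fell in 5 (median 0.00). Shields against complement, a serum defence that antibodies can trigger, rose in part. CD55, which speeds the decay of the C3 convertase, had 87.9 to 108 CPM with Herceptin (median 99.7), against 56.1 to 65.5 CPM in control (median 59.7). CD59 (uncertain), which blocks the membrane attack complex, had 443 to 490.1 CPM with Herceptin (median 458), against 341 to 365 CPM in control (median 351). CD46, the third shield of this kind, had 474 to 559 CPM with Herceptin (median 527), against 453 to 552 CPM in control (median 529). CD55 and CD59 stood clear of control, and CD46 overlapped and did not pass (0.02). VTCN1, which encodes the inhibitory ligand B7-H4, had 330.5 to 363 CPM with Herceptin (median 350.4), against 282 to 303 CPM in control (median 294). CD47, the signal that holds macrophages back, rose by 0.18, and CD274, which encodes PD-L1, did not pass (0.20; edgeR adjusted p = 0.0333 without Herceptin replicate 5). Of ligands that activate natural killer cells ULBP1 rose by 0.58 and ULBP3 and CD58 fell (-0.19 and -0.30). The ULBP3 ranges overlapped, and its fall missed the threshold in 3 alternative settings, among them no filter on low counts (edgeR adjusted p = 0.0857 to 0.149). The ULBP1 rise missed it within numbers 3, 5 and 8 (edgeR adjusted p = 0.0882).

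Several large families had no common direction. Zinc finger genes named ZNF rose in 47 of 379 and fell in 60 (median 0.00; 34 and 74 with the length trend removed, median -0.04), and ZNF292 had 116 to 133 CPM with Herceptin (median 124), against 71.7 to 87 CPM in control (median 79.7). Solute carriers rose in 58 of 203 and fell in 52 (median 0.02), a split that turned to 47 and 60 (median 0.00) with the length trend removed: SLC15A1, a peptide transporter, had 45.9 to 57.1 CPM with Herceptin (median 49.9), against 30.7 to 38.4 CPM in control (median 34.5), and SLC29A1, the main nucleoside importer, had 14.5 to 19.5 CPM with Herceptin (median 17.6), against 23.8 to 28.3 CPM in control (median 25.7). Chromatin genes rose in 18 of 56 and fell in 12 (median 0.03), a split that turned to 12 and 16 (median -0.03) with the length trend removed. The histone demethylase genes KDM5B and KDM3A rose by 0.31 and 0.29, and HDAC2 and EZH2, which silence genes, fell (-0.29 and -0.24). RAB GTPases rose in 15 of 47 and fell in 11 (median 0.01): RAB9A, of transport from late endosomes to the Golgi, had 44.9 to 53.7 CPM with Herceptin (median 49.8), against 33.3 to 41.2 CPM in control (median 36.2). Ion channels rose in 13 of 33 and fell in 8 (median 0.04; 13 and 11 with the length trend removed), and TRPM4, a calcium-activated cation channel, had 219 to 234 CPM with Herceptin (median 223), against 168 to 183 CPM in control (median 179). Enzymes of sialic acid and O-glycans rose in 10 of 28 and fell in 3 (median 0.05): GNE, which makes the precursor of sialic acid, had 19.8 to 26.4 CPM with Herceptin (median 22.8), against 11.6 to 15.1 CPM in control (median 13.6). By class of gene, 2970 of 11757 protein-coding genes rose and 3109 fell, and 116 of 981 long non-coding RNAs rose and 82 fell.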

How the data were processed

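RNA was measured in SKBR3 cells on day 7 with a stranded poly(A) protocol (TruSeq Stranded mRNA) and paired reads of 126 bases, per the labels' protocols. The authors deposited expected counts, RSEM's estimates for each gene after ambiguous reads are shared out between genes. Reads were aligned with STAR on GRCh38.p12, per the submitters' processing notes. The annotation release, RSEM version and strand setting were not stated there. Of the nonzero expected counts 27.163% were not whole (tolerance 1e-06), and a gene with such values in over 50% of the 16 libraries, which holds for 3922 tested genes, is called uncertain: its reads match other sequences.

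Here the expected counts were rounded to whole numbers and tested in edgeR 4.0.16 (R 4.3.3): genes kept by filterByExpr, TMM factors, quasi-likelihood F test with robust spread, Benjamini-Hochberg adjustment over 13286 genes at 0.05, prior count 0.125, and glmTreat for the 1.2-fold test. CPM use TMM-scaled totals. The code was tested on simulated data. No 2 libraries of a group agreed within counting noise (chi-square per degree of freedom 1.69 to 6.85 over 56 pairs). Alternatives used DESeq2 1.42.0, limma 3.58.1 and sva 3.50.0.

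Named genes are the 10 largest rises and falls past 1.2-fold (at least 10 CPM, whole counts in at least 90% of libraries, no overlap), the 5 largest rises and falls in CPM without mitochondrially encoded genes, the 5 most abundant level genes, and, in each list, up to 5 members of smallest p and others needed for a role. SPINK5, TCL1B, MME, DLL4 and RPL39P3 were named after their values were seen. Members and lists were chosen with earlier results of these data known. Promoters are from RefSeq (GRCh38.p14) for 9363 of 11731 protein-coding tested genes. Letters of FOXO sites (GTAAACA), of TFEB and USF sites (TCACGTGA) and of the E-box (CACGTG) were also searched in all lists, and their shares are not given here. Exact permutation tests gave the class shares. Libraries of the biosimilar were left out because the comparison does not involve them.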

Additional observations from a re-analysis of the deposited data

Results flagged for a closer look

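Values of named genes were checked for 1 library that stood far from the others of its group. Of 594 groups of 8 libraries checked, 40 had such a library (6.73%), and chance alone marks about 1 in 20 groups. Genes share libraries, so these values are not independent. Their part in the results was not tested beyond the fits that leave out each library.

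In Herceptin replicate 2 the highest value stood apart for EGR1 at 29.4 CPM, FKBP4 at 363 CPM, FOSL2 at 120 CPM, GAB2 at 10.9 CPM, IGF1R at 30.8 CPM, KREMEN2 at 2.87 CPM and MYH9 at 889 CPM. In replicate 3 it did so for HSP90AA1 at 2912 CPM and KIF18A at 28.6 CPM. In replicate 4 it did so for SLC15A1 at 57.1 CPM. In replicate 5 it did so for LSM2 at 28.1 CPM. In replicate 8 it did so for CSF1R at 46.3 CPM, ITGB6 at 114 CPM and PRR9 at 4.74 CPM.

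In Herceptin replicate 1 the lowest value stood apart for CLDN7 at 223 CPM and MRPS16 at 229 CPM. In replicate 3 it did so for E2F7 at 16.3 CPM, ID3 at 170.3 CPM, INPP5D at 3.13 CPM and KDM5B at 64.3 CPM. In replicate 6 it did so for CBLC at 11.3 CPM, CCN2 at 26.5 CPM and KRT17 at 16.9 CPM. In replicate 8 it did so for CDK12 at 2045 CPM and SPINK5 at 3.92 CPM.

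In control replicate 2 the highest value stood apart for MYC at 121 CPM. In replicate 3 it did so for DUSP4 at 166 CPM. In replicate 4 it did so for ACTB at 2586 CPM and IRS2 at 1.75 CPM. In replicate 5 it did so for CLDN7 at 262 CPM, CORO1A at 143 CPM, KRT8 at 5673 CPM, MRPL12 at 239.6 CPM and RPS9 at 604 CPM. In replicate 8 it did so for DSC1 at 1.79 CPM.

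In control replicate 2 the lowest value stood apart for ITGAE at 17.4 CPM. In replicate 3 it did so for GRHL3 at 2.93 CPM. In replicate 5 it did so for ADAM10 at 165 CPM. In replicate 6 it did so for SPRR1B at 0.0988 CPM. In replicate 7 it did so for RPL28 at 337 CPM.

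Herceptin replicate 2 and control replicate 5 held 7 and 6 of these values, the most in their groups.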

How the results depend on the processing

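Both counts of changed genes moved by less than 1.5 times under RLE or upper-quartile factors, no filter on low counts, no mitochondrially encoded genes, 1 surrogate variable and limma-voom (6273 to 6665 changed, and 773 to 1160 by over 1.2-fold). No gene called in both the edgeR fit and any alternative changed sign. A mean of at least 10 CPM left 716 genes changed by over 1.2-fold and DESeq2 gave 648, against 1080. Whole counts in at least 90% of libraries left 4119 changed genes of the 7914 that could be tested, against 6405, with fewer genes tested. Leaving out 1 library gave 6139 to 6431 changed genes and 1012 to 1129 by over 1.2-fold. Alternatives added after seeing the data gave 6363 changed genes with the length trend removed, 6588 with the numbers 3, 5 and 8 as a covariate, 4047 (622 by over 1.2-fold) within those numbers alone, with 6 libraries in place of 16, and 5227 within the others.

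The fit with replicate block gave 6778 changed genes and 1195 by over 1.2-fold. The shared numbers are not stated to pair the samples: correlations of same-numbered deviations were 0 to 0.12, and 4 of 8 numbers correlated best with their own. For the cytosolic ribosomal protein share the difference was -0.333 percentage points without mitochondrially encoded genes (exact permutation adjusted p = 0.058) and -0.448 to -0.328 with 1 library left out. For the 100 most abundant genes it was 0.032 without mitochondrially encoded genes. For pseudogenes it was 0.0106 to 0.0173 with 1 library left out, passing without Herceptin replicate 6 or 7 or control replicate 2. The causes were not tested. Of 246 called genes named, 205 kept the call in every alternative run and 41 lost it in an alternative. Most of the 41 lost it only within numbers 3, 5 and 8, among them AKT2, EIF2B5 and HSP90AA1. MXD4 and PKP3 lost it within both sets of numbers. Of the genes without a call 1, CBL, turned to -0.0904 with the length trend removed. Depth limits the calls in low genes: the median SE was 0.141 at 1 to 10 CPM, against 0.03 at 100 to 1000 CPM.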
